A study of Mus musculus with 8 samples.

Results

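The regions described here are stretches of H3K27me3 chromatin inside very long genes, those whose RefSeq span on the mouse build GRCm38 is at least 500 kb. A region was kept where it was autosomal, shorter than 10000 bp and fully within the span of such a protein-coding gene, and Rbfox1, which held 428 regions, was left out. This gave 12396 of the 265968 regions in the authors' deposited table, in 135 of 215 very long genes, covering 7.47 Mb with a median length of 350 bp. A further 7 regions of 10 kb or longer lay in these spans and 17 regions crossed a span edge, and neither kind was kept.

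The study used 3T3 cells, an immortalised mouse fibroblast line, that carried either a control construct or a construct overexpressing NNMT, nicotinamide N-methyltransferase. Both kinds of cells grew for 48 h with 10 µM methionine and 10% dialyzed serum, were fixed with 1% formaldehyde and had their chromatin digested with micrococcal nuclease. Chromatin was immunoprecipitated with an H3K27me3 antibody, clone C36B11, in 3 libraries per construct that the labels call biological replicates, and 1 input library per construct was sequenced. NNMT uses up S-adenosylmethionine, from which histone methyltransferases take their methyl groups, and the study compares the mark between cells with and without the overexpression. The labels do not say whether the constructs sit in pools or in single clones.

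H3K27me3 is written by Polycomb repressive complex 2 and marks genes and wide domains that are kept silent. Very long genes are dominated by adhesion molecules, ion channels, receptors and scaffold proteins of neurons, and their introns make up nearly all of their length. Many of them replicate late, and several of them are common fragile sites, places where chromosomes break under replication stress.

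A genome of this build was not used here, so the regions themselves are given by position. The promoters of these genes could be read from RefSeq (GRCm38.p6), and 4 of them are printed because a listed region touched them. They were chosen after the values were seen, to show start sites inside genes of both directions. Each is the 250 bases before a transcription start, 5′ to 3′ on the strand of the gene, with every CG in capitals. CG is the dinucleotide whose density marks the promoters that Polycomb complexes tend to occupy, and it reads the same on both strands. The Thsd4 window is chr9:60511036-60511285 (minus strand), the Kcnip4 window chr5:49285660-49285909 (minus), the L3mbtl4 window chr17:68273547-68273796 (plus) and the Dock2 window chr11:34783906-34784155 (minus).

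Thsd4: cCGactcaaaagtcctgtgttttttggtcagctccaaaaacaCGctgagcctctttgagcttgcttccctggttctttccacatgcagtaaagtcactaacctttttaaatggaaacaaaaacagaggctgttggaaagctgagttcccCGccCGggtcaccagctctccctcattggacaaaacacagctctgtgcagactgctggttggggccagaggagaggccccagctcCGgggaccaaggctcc
Kcnip4: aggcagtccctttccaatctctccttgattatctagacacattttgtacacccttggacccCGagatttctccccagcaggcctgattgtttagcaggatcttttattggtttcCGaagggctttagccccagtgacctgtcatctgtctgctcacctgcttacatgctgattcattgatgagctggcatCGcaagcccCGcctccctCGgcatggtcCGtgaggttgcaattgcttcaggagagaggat
L3mbtl4: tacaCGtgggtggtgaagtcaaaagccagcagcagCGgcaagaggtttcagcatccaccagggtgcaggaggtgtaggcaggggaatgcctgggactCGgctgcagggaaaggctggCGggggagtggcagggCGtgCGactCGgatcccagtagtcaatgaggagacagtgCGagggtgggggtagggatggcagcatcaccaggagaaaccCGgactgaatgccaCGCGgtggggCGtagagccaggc
Dock2: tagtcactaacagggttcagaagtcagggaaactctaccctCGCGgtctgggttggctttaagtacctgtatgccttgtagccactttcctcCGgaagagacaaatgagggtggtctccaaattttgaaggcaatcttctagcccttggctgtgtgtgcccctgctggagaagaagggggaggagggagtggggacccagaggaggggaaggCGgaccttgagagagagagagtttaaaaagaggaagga

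The L3mbtl4 window holds 12 CG, a number that 33.5% of the 32851 RefSeq promoter windows reach or exceed. The windows of Kcnip4, Thsd4 and Dock2 hold 6, 5 and 4 CG, reached by 50.4%, 55.6% and 62.2% of windows. The values of the regions that touch these promoters are given after the genes.

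For each region the deposited table gives 3 values for one set of libraries and 3 for another, and no source used here says which set is NNMT. The first 3 values are called set 1 and the next 3 set 2, and no direction is tied to a construct. A region was counted as higher in the set with the larger sum of its 3 values. All listed regions appear to have been chosen by the authors for a difference, so shares are read against the same share over all 263504 listed autosomal regions under 10000 bp. The total values of a library over those regions ran from 37919312 to 39906226 in set 1 and from 34149096 to 35489220 in set 2. Sequencing depth cannot be derived from the table, and no source used here says whether the inputs entered the values, so a gain or loss of DNA copies and a change in the mark cannot be told apart.

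In the very long genes the listed regions leaned towards set 2, whereas the listed regions as a whole leaned towards set 1. Of the 12396 regions, 4742 were higher in set 1 (38.3%, 95% Wilson interval 37.4 to 39.1) and 7654 in set 2, against 59.1% and 40.9% over all listed regions. The share in set 1 was 57.2% inside genes of 100 to 500 kb, 68.7% inside genes under 100 kb and 58.8% where no protein-coding gene was touched. The interval accounts for counting error alone and treats neighbouring regions as independent, which they are not. A drop in the number of cells or chromosome copies that carry the mark and a drop in the mark per copy cannot be told apart in such bulk chromatin.

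The median log2 ratio of set 1 over set 2, from summed values with a pseudocount of 1, was -0.55 in the very long genes (quartiles -1.07 and 0.65) and 0.41 over all listed regions. The sets did not overlap in 8377 of the 12396 regions (67.6%), with every value of one set above every value of the other, against a background of 65%. Such a region is called separated. Of the 12396 regions, 3257 were separated and higher in set 1, and 5120 were separated and higher in set 2. Over all 263504 listed autosomal regions under 10000 bp, 40.1% were separated and higher in set 1, and 24.9% were separated and higher in set 2. The share of separated regions was thus close to the background, and the split between the directions was the reverse of it.

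Regions of very long genes were shorter than others, and the lean was seen at each length. Among regions under 300 bp, 35.5% were higher in set 1 inside very long genes and 61.2% elsewhere. From 300 to under 1000 bp the shares were 37.3% and 56.8%, and from 1000 bp up they were 47.3% and 66.7%. In the longest class the regions of very long genes were almost evenly split.

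The part of each library's total that fell in these regions was free of any scale factor between libraries. For set 1 it was 3.12%, 3.10% and 3.07%, and for set 2 it was 3.70%, 3.77% and 3.69%. The libraries of set 2 all lay above those of set 1, with a ratio of means of 1.20. A two-sided exact permutation test over the 3 and 3 libraries gave p = 0.1, the smallest value that this design allows. Per kb of listed region, set 1 stood at 156 to 166 in very long genes and at 192 to 202 elsewhere, while set 2 stood at 168 to 179 and at 171 to 178.

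Regions of the same gene mostly shared a direction. Of 116 genes with at least 5 regions, 37 were higher in set 1 by summed values and 79 in set 2, and the median gene had a log2 ratio of -0.51, against 0.16 in genes of 100 to 500 kb and 0.34 in shorter ones. The sums were separated in 107 of the 116 (92.2%), against 85% of shorter genes. Rescaling all libraries to equal totals lowers log2 ratios by about 0.19 and turns 10 of the 37 genes to set 2, all of them with a log2 ratio of at most 0.16. For a separated gene the two-sided exact permutation test gives p = 0.1, its smallest value, so the ratios below carry, in place of a call, their range over all 9 ways to pair libraries across the sets.

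**Figure D1:**
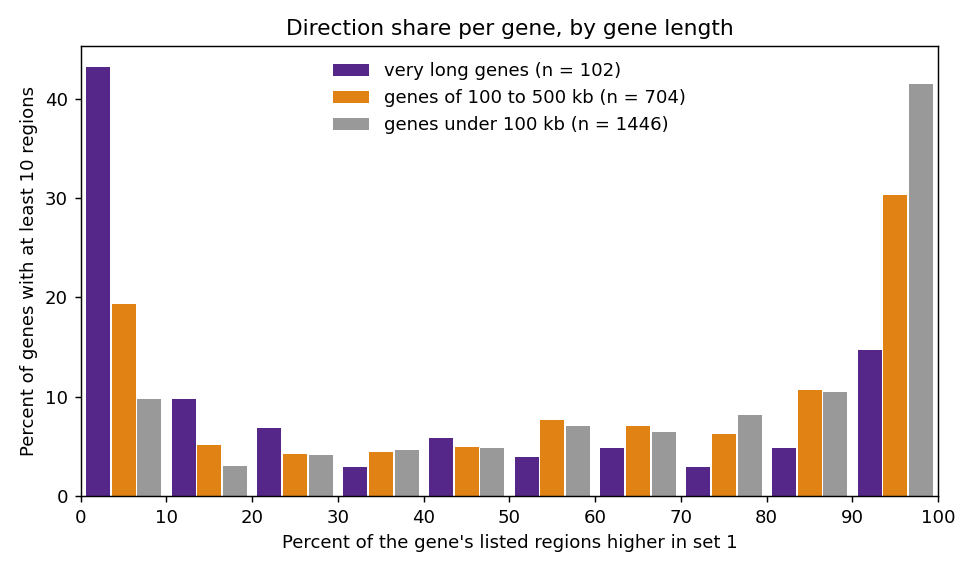
Percent of genes (y axis) in each bin of the percent of a gene's listed regions that were higher in set 1 (x axis, 10 bins), for very long genes and 2 classes of shorter genes with at least 10 listed regions each. Very long genes pile up at the left end, in set 2, and shorter genes at the right end, in set 1.

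Among the 102 genes with at least 10 regions, 59 (57.8%) had at least 90% of their regions in one direction, against 51.3% of shorter genes. These were 15 genes in set 1 (14.7% of the 102, against 37.8% of shorter genes) and 44 in set 2 (43.1%, against 13.5%). In 28 of the 102 every region pointed the same way, to set 1 in 8 genes and to set 2 in 20. Among genes of 100 to 500 kb this held for 199 of 704, 118 in set 1 and 81 in set 2. Among genes under 100 kb it held for 517 of 1446, 418 in set 1 and 99 in set 2. Neighbouring regions of a gene had the same direction in 86.2% of 12552 pairs, where regions inside overlapping genes (251 in both Iqschfp and Schip1, 20 in Gm37013, Gm38666 and Gm38667) count once for each gene here and in the gene counts, compared with 78.8% in genes of 100 to 500 kb and 77.4% in shorter genes. Because the ends of the scale are so full, the genes are described below from those that pointed wholly to set 2, through those that pointed wholly to set 1, to those that switched along their length.

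**Figure D2:**
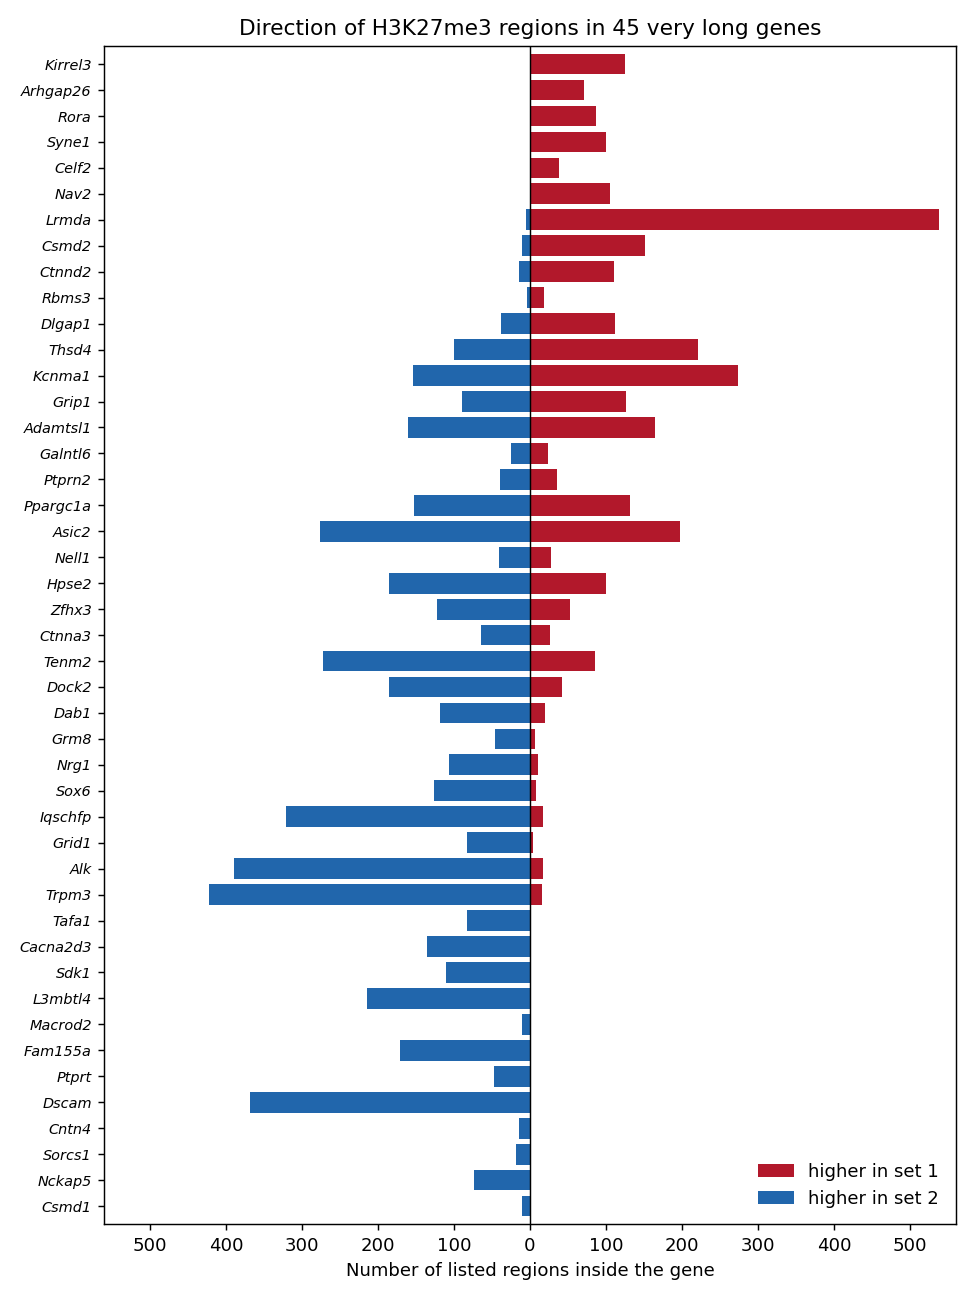
Number of listed regions higher in set 1 (bars to the right) and in set 2 (bars to the left) in 45 named very long genes, ordered by the share of their regions higher in set 1. Dscam has 368 regions to the left and none to the right, Lrmda has 538 to the right and 5 to the left, and Adamtsl1 is split almost evenly.

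Dscam, an immunoglobulin-superfamily adhesion molecule of neurons that also serves self-avoidance of their branches, held the most regions of the genes whose regions all pointed one way. All 368 of its regions were higher in set 2, over 565 kb of its span (chromosome 16, 96587452 to 97171113). Summed over its regions, the values per kb of listed region were 78.8, 74.3 and 69.4 in set 1 against 187, 203 and 190.2 in set 2. The sets lay far apart, with set 2 higher by 2.61-fold (2.38 to 2.93 over library pairs). In the authors' deposited table its region of largest summed value (96724101 to 96728600) had values of 385, 328 and 392 for set 1 against 1105, 1155 and 919 for set 2.

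L3mbtl4 encodes a protein with MBT repeats, a domain that binds methylated lysines. All 215 of its regions were higher in set 2 (chromosome 17, 68272898 to 68784078). The values per kb were 104, 96.2 and 88.3 in set 1 against 183, 201 and 184 in set 2, a ratio of 1.97 (1.75 to 2.28). No library of set 2 came near those of set 1. In the authors' deposited table a 200 bp region of this gene (68458851 to 68459050) stood at 5, 0 and 1 for set 1 against 46, 38 and 42 for set 2. Its log2 ratio was among the 3 largest towards set 2, of regions whose 6 values summed to at least 100.

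Channel subunits and another adhesion molecule had the same pattern. Fam155a encodes a subunit of the sodium leak channel complex, and all 171 of its regions were higher in set 2, by 2.21-fold (2.05 to 2.51). Its values per kb were 85.3, 85.1 and 77.9 against 175, 195 and 179. Cacna2d3, an auxiliary subunit of voltage-gated calcium channels, had 135 of 135 regions in set 2 and a ratio of 1.92 (1.79 to 2.11). Sdk1, a synaptic adhesion molecule, had 110 of 110 and a ratio of 1.96 (1.74 to 2.27). Nckap5, which encodes an NCK-associated protein, had fewer regions (74, all in set 2) and a wider gap, 58.8, 50.9 and 46.6 per kb against 170, 182 and 173 (3.35-fold, 2.88 to 3.89). Each of these genes had its 6 libraries in 2 groups with no overlap.

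Other genes wholly in set 2 held fewer regions. They included Ntm with 67 regions (2.57-fold), Prkg1 with 50 (2.45-fold), Ptprt with 48 (2.53-fold), Spag16 with 39 and Ryr2 with 28. Apart from Nckap5, the largest ratios towards set 2 came from genes with few regions. Csmd1, a membrane protein with CUB and sushi domains, held 11 regions over a span of 1643 kb, at 36.7, 33.3 and 35.6 per kb in set 1 and 199, 171 and 206 in set 2 (5.41-fold, 4.56 to 6.0). Sorcs1, a sorting receptor of the VPS10 family, had 19 regions at 3.32-fold (2.67 to 4.26). Cntn4, a contactin, had 14 at 3.26-fold with a wide range of 2.09 to 6.0, and 1 library of set 1 stood at 30.4 per kb and the other two at 60.8 and 62.4. Macrod2, an ADP-ribosyl hydrolase gene known as a fragile site, also had few regions, 11, but a smaller ratio of 2.00-fold (1.35 to 2.63).

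Genes that pointed wholly to set 1 were fewer, and Kirrel3 had the second widest gap of the named genes after Csmd1. Kirrel3 encodes a nephrin-like adhesion molecule. All 125 of its regions were higher in set 1 (chromosome 9, 34485853 to 35040807). The values per kb were 189.8, 194 and 187 in set 1 against 45.8, 36.1 and 44.9 in set 2, a ratio of 4.50 (4.07 to 5.37). The libraries of set 2 lay lower here than in any other gene with at least 10 regions, and the sets were far apart. In the authors' deposited table its region of largest summed value (34821601 to 34823350) had 331, 382 and 368 for set 1 against 83, 84 and 74 for set 2.

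Arhgap26, a GTPase-activating protein, had 71 of 71 regions in set 1 and values per kb of 202, 185 and 173 against 58.5, 53.3 and 48.1 (3.50-fold, 2.95 to 4.19). Rora, a nuclear receptor that takes part in the circadian clock and in cerebellar development, had 87 of 87 in set 1 and 187, 173 and 179 against 56.3, 58.9 and 63.3 (3.02-fold, 2.73 to 3.32). Most of the regions of Rora lay in the upper part of its span (chromosome 9, 68653404 to 69388246), as the plot of direction along genes shows. Syne1, or nesprin-1, which links the nuclear envelope to actin, had 100 of 100 in set 1, with 171, 186 and 169 per kb against 60.9, 62.4 and 74.7 (2.66-fold, 2.26 to 3.06). In all 3 genes the libraries of set 1 lay between 169 and 202 per kb and those of set 2 between 48.1 and 74.7.

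Celf2, a splicing regulator, had 38 of 38 regions in set 1 and a ratio of 2.35 (2.01 to 2.83). Nav2, a neuron navigator protein of the cytoskeleton, had 105 of 105 at a smaller ratio of 1.70 (1.57 to 1.83). Nav2 was the most heavily marked of these genes, with 237, 244 and 228 per kb in set 1 and 133, 145 and 139 in set 2. Rarb and Cdkal1, with 14 and 11 regions, completed the 8 genes wholly in set 1.

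**Figure D3:**
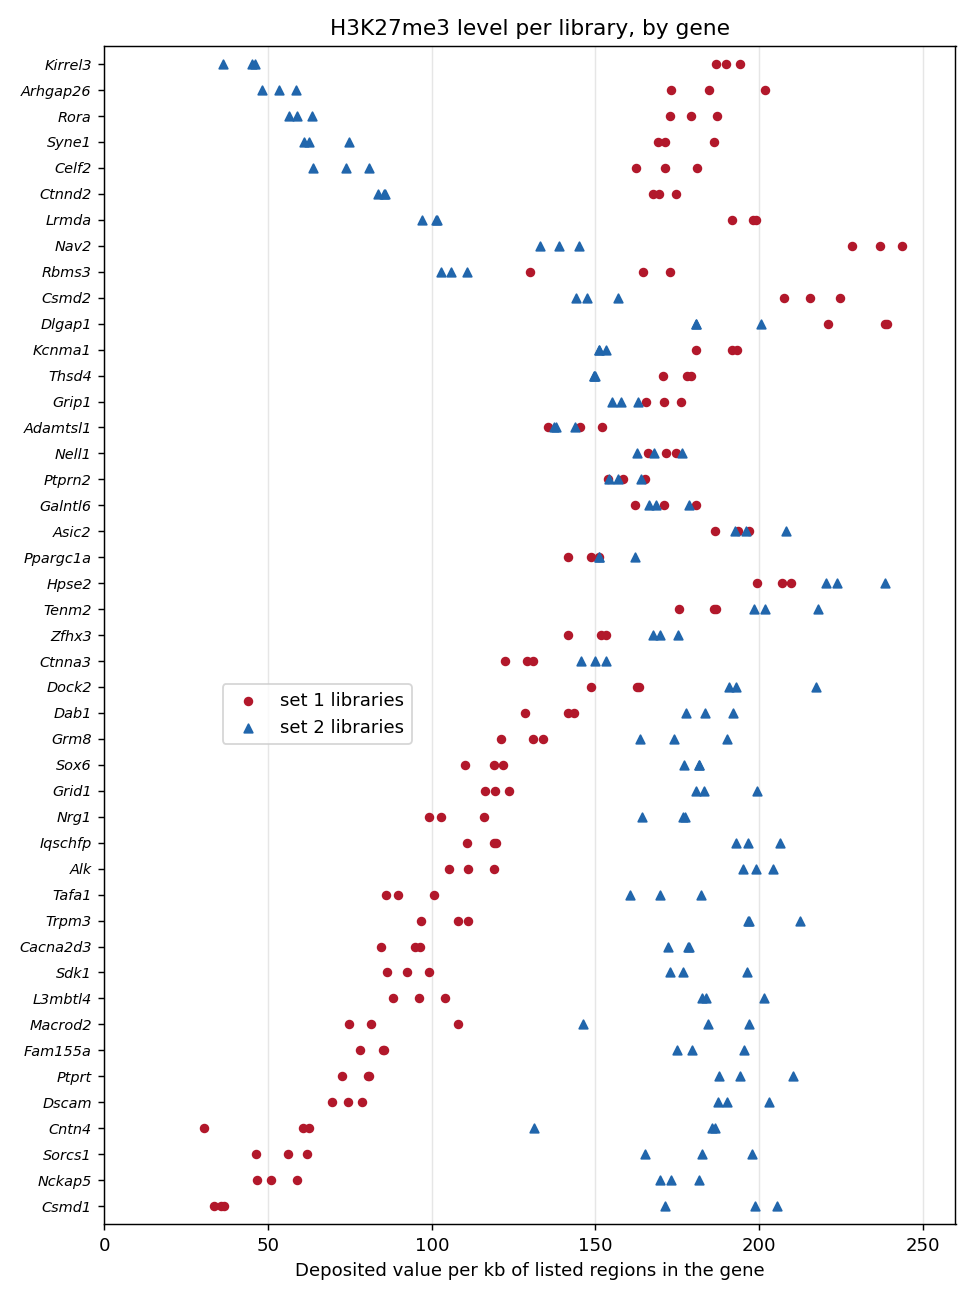
Deposited values summed over a gene's listed regions, per kb of those regions (x axis), for each library of set 1 (circles) and set 2 (triangles) in 45 named genes, ordered by ratio. The upper of the 2 groups stays at a similar level from Kirrel3 at the top to Csmd1 at the bottom, while the lower one moves from under 50 per kb at either end up to the level of the other near Galntl6.

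Across genes with a single direction the levels of the lower set ranged more widely than those of the higher set. In the 44 genes with at least 90% of regions in set 2, the median library of set 2 ran from 159 to 201 per kb, with a median gene of 181, and that of set 1 from 35.6 to 138. In the 15 such genes of set 1, the median library of set 1 ran from 164 to 237 and that of set 2 from 44.9 to 148. Ratios ran from 1.41 to 5.41 in the former and from 1.44 to 4.50 in the latter, with medians of 1.87 and 1.96. These are levels of listed regions only. The genes were grouped by which set was higher, among regions that appear to be listed for a difference. Such a selection can itself produce this contrast, which was not tested.

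Lrmda, a leucine-rich repeat gene tied to melanocyte differentiation, held the most regions of all. Of 543, 538 were higher in set 1 (chromosome 14, 22019504 to 23056093). The values per kb were 199, 198 and 192 in set 1 against 101, 97.1 and 102 in set 2, a ratio of 1.96 (1.89 to 2.05). The 5 regions in set 2 were scattered singly and cut the gene into 6 runs of set 1 regions, of 24 to 145 regions each. In the authors' deposited table the region of largest summed value (22566301 to 22574500) had 2401, 2186 and 2362 in set 1 against 1243, 1138 and 1195 in set 2.

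Beside Dscam, the genes with most regions higher in set 2 were Trpm3, Alk and Iqschfp. Trpm3, a cation channel, had 422 of 438 regions in set 2 and one run of 344 regions over 417 kb, with 111, 108 and 96.6 per kb in set 1 and 196, 212 and 197 in set 2 (1.92-fold, 1.77 to 2.20). It ended, at the high-coordinate side, in a run of 11 regions higher in set 1 by 1.60-fold. Alk, a receptor tyrosine kinase, had 390 of 407 in set 2 and a ratio of 1.78 (1.64 to 1.94). Iqschfp, the fusion transcript of Iqcj and Schip1, had 321 of 338 and a ratio of 1.71 (1.61 to 1.86), and 251 of its regions are also those of Schip1.

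Several genes held long runs of both directions, and their summed ratios hide this. Adamtsl1, a matrix protein of the ADAMTS-like family, had 164 regions in set 1 and 160 in set 2, and its libraries overlapped (152, 145 and 135 per kb against 138, 144 and 137). From the low-coordinate end of its span (chromosome 4, 85513852 to 86428390) it began with runs of 115 and 42 regions in set 2, at 1.88-fold and 1.72-fold. The upper part held runs of 35 and 124 regions in set 1, at 2.16-fold and 1.91-fold. One gene was thus higher in set 2 in its lower part and higher in set 1 in its upper part.

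Kcnma1, the large-conductance calcium-activated potassium channel, began with 140 regions in set 1 over 146 kb at 2.29-fold (chromosome 14, 23293001 to 23439000). A run of 102 regions in set 2 followed from 23572651 to 23794150, at 1.70-fold, and shorter runs of set 1 regions closed the gene. The gene as a whole stood at 193, 192 and 181 per kb in set 1 and 151, 153 and 151 in set 2, a ratio of 1.24 (1.18 to 1.28) that neither stretch shows. Thsd4, a matrix protein that binds fibrillin, held 163 regions in set 1 at 2.23-fold from 59994001 to 60236400 on chromosome 9, and then runs of 12, 29 and 10 regions in set 2 at 1.40-fold to 1.42-fold. A last run of 17 regions in set 1 (1.61-fold) lay near the high-coordinate end of the span.

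Of the catenin genes, which encode partners of cadherins, Ctnna3 and Ctnnd2 switched too, while Ctnna2 had all 9 of its regions in set 2. Ctnna3 began with 14 regions in set 1 at 1.59-fold and went on with 60 in set 2 at 2.72-fold, over 486 kb. Ctnnd2 began with 13 regions in set 2 at 3.09-fold and, after a gap, held 109 in set 1 at 2.20-fold, which took its sum to 2.01-fold (1.95 to 2.09) in set 1. Grip1, a scaffold that binds glutamate receptors, began with 56 and 14 regions in set 2 and went on with runs of 12 to 30 in set 1. Its sum was 1.08-fold higher in set 1 (1.02 to 1.14) and turned to a log2 ratio of -0.084 with equal library totals. Ppargc1a, a coactivator of mitochondrial genes, held runs of 76 and 23 regions in set 2 with runs of 12 and 28 in set 1 between them.

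**Figure D4:**
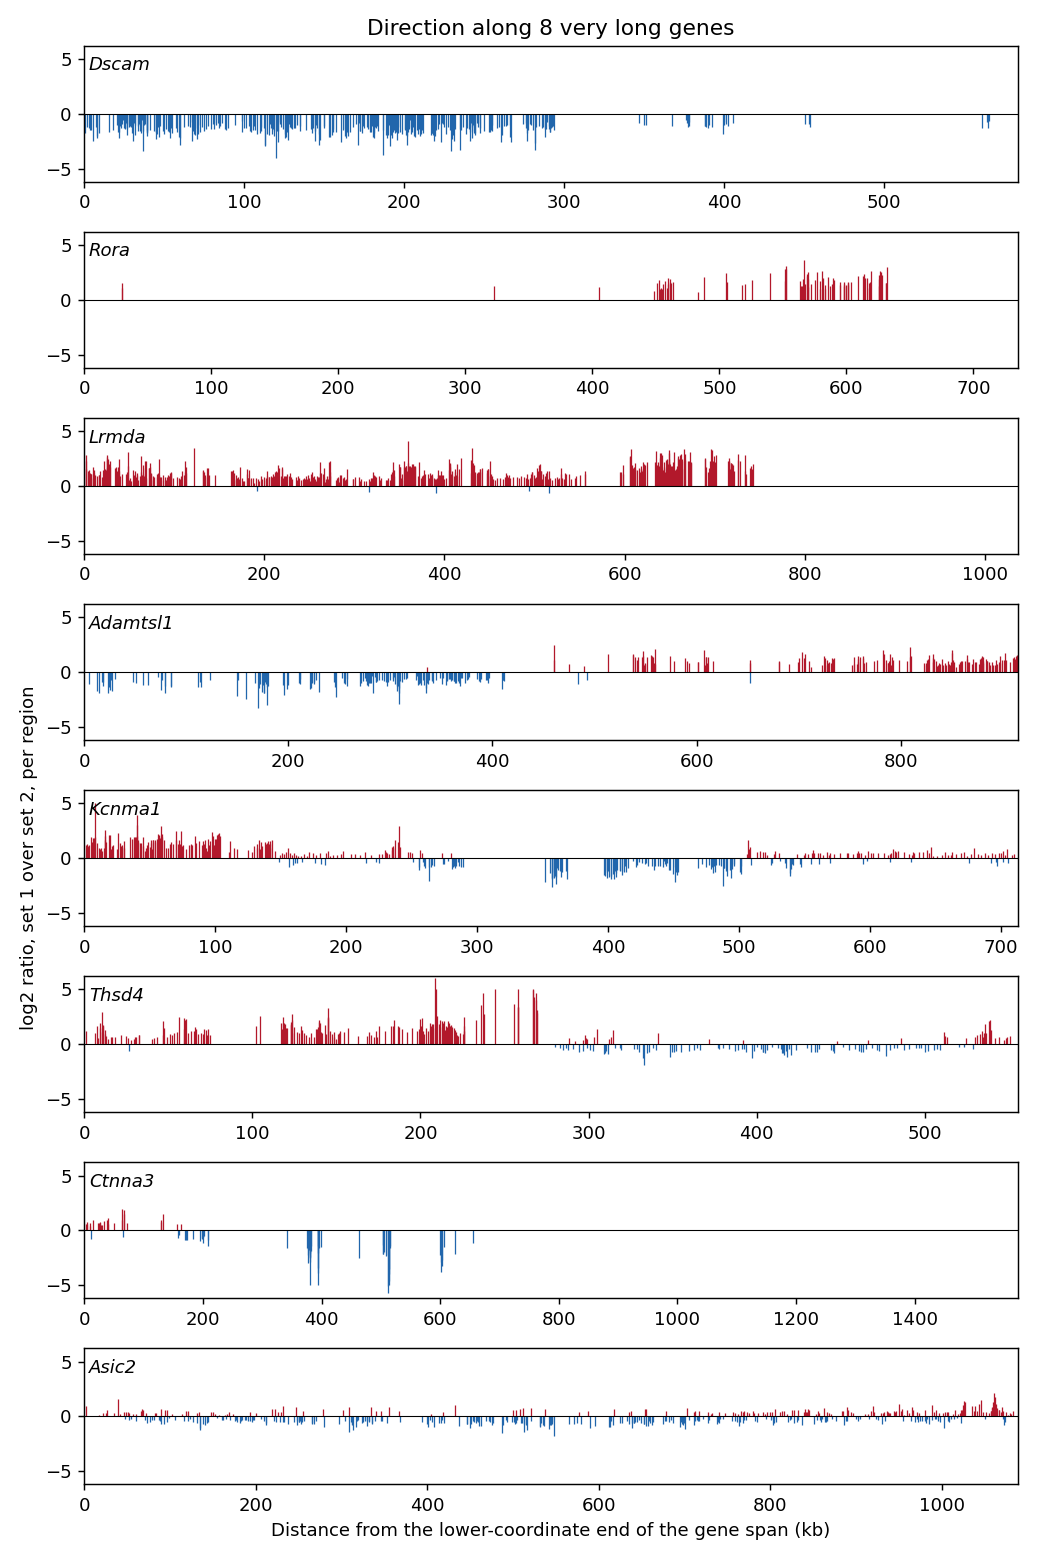
Log2 ratio of set 1 over set 2 for each listed region (y axis, bars up for set 1 and down for set 2) by distance in kb from the low-coordinate end of the span (x axis) in 8 genes. Dscam and Rora keep 1 direction, Adamtsl1, Kcnma1, Thsd4 and Ctnna3 switch between long stretches, and Asic2 alternates with small ratios.

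Asic2, an acid-sensing ion channel, was mixed in another way. Its 474 regions fell into 199 runs, the longest of 22 regions, and its libraries overlapped at 197, 194 and 186 per kb in set 1 and 196, 208 and 193 in set 2. The ratio of the sums was 1.03 (0.98 to 1.12) towards set 2. Hpse2, a relative of heparanase, alternated in the same way, with 133 runs in 285 regions and a longest run of 13, and stood 1.11-fold higher in set 2 (1.05 to 1.20). Tenm2, a teneurin adhesion molecule, had 112 runs in 358 regions and was higher in set 2 by a small ratio of 1.13 (1.06 to 1.24). Unlike Asic2 and Hpse2, it also held a long run of 99 regions in set 2, over 652 kb at 1.82-fold.

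The genes with the most even split had sums that overlapped between the sets. Galntl6, of the GalNAc transferase family, had 24 regions in set 1 and 25 in set 2, and 171, 181 and 162 per kb against 168, 179 and 166. Ptprn2, a receptor-type phosphatase of secretory granules, had 35 and 39, and Nell1, a secreted factor with a less even split, 28 and 41. Both had ratios of 1.01 (0.94 to 1.07). Overlap was also found in Adamtsl1, Asic2, Ppargc1a, Cntnap2 and Ank2, which made 8 of the 43 mixed genes with at least 10 regions. Sums did not overlap in Rgs6, with 56.8% of 125 regions in set 1, or in Grip1, with 58.5% of 217.

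By role, most groups of very long genes leaned to set 2, as did the genes as a whole. Of 10 synaptic and neuronal adhesion genes with at least 5 regions, 7 were higher in set 2 (8 with equal library totals), and 72.7% of the regions of the group were. Glutamate receptor genes were higher in set 2 in 3 of 3 cases, among them Grid1, a delta receptor, at 1.57-fold (1.46 to 1.72) and Grm8, a metabotropic receptor, at 1.37-fold (1.22 to 1.57). Axon guidance and neuregulin genes were higher in set 2 in 5 of 5 cases. There, Nrg1, the neuregulin ligand of ERBB receptors, stood at 1.63-fold (1.42 to 1.79), and Dab1, the adaptor of reelin signalling, at 1.34-fold (1.24 to 1.49).

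Of the channel genes, 7 of 10 were higher in set 2, and of the cadherin and catenin genes 4 of 5. Of the matrix and glycosylation genes 5 of 7 were higher in set 2, and all 7 with equal library totals, where Adamtsl1 and Galntl6 turned. Each of these counts is small, and the share of all 116 genes that was higher in set 2 was already 79 of 116. With equal library totals 27 of the 116 were higher in set 1 and the others in set 2.

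Other groups were split or leaned to set 1. Transcription and chromatin factors had 4 of 8 genes in each direction. Among them Sox6, a factor of cartilage and muscle development, was higher in set 2 by 1.54-fold (1.46 to 1.65), and Zfhx3, a homeodomain factor, by 1.15-fold (1.09 to 1.24). Cytoskeleton and muscle membrane genes were higher in set 1 in 4 of 6 cases, Syne1 and Nav2 included. The 2 genes of the RNA-binding list that held regions, Celf2 and Rbms3, were both higher in set 1, Rbms3 by 1.46-fold (1.17 to 1.68). That list does not hold every gene of this kind, and Adarb2, which is not in it, had 18.8% of 48 regions in set 1.

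Scaffold genes stood higher in set 1 for 4 of 9 and for 2 of 9 with equal totals, where Grip1 and Anks1b turned. Dlgap1, a postsynaptic density scaffold, had 112 of 150 regions in set 1 and a ratio of 1.24 (1.10 to 1.32). Kinases, phosphodiesterases and GTPase regulators stood higher in set 1 for 4 of 9 genes and for 2 of 9 with equal totals. Dock2, an activator of Rac in blood cells, had 185 of 227 regions in set 2 and a ratio of 1.27 (1.17 to 1.46). The Csmd pair went opposite ways, Csmd1 to set 2 and Csmd2 to set 1 with 151 of 161 regions (1.44-fold, 1.32 to 1.56). Ptprt, with all 48 regions in set 2, and Ptprn2, with an even split, were the phosphatases with regions. Of the secreted factors, Tafa1 had 83 of 85 regions in set 2 at 1.85-fold (1.60 to 2.11).

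The chromatin on either side of a gene shared its direction in many cases but not in all. Of 100 genes with at least 10 regions and at least 10 listed regions within 1 Mb of the span, 63 had the same majority direction as those flanks and 37 the opposite one. The share of regions in set 1 inside the gene and in its flanks correlated at r = 0.41 over the 100 genes, which share libraries and in part chromosomes. Against all listed regions of the same chromosome, the gene's own regions included, 54 had the same direction and 46 the opposite. Of the 57 genes with a single direction by the 90% rule, 20 went against their flanks, 17 of them in set 2 and 3 in set 1.

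Dab1, Alk and Sdk1 stood against their flanks. Dab1 had 14.4% of its 139 regions in set 1, whereas 86.9% of 457 flanking regions were higher in set 1. Alk had 4.18% of its 407 in set 1 and 77.6% of 441 in its flanks. Sdk1 had none of 110 in set 1 and 56.1% of 187 in its flanks. For Rora, the low-coordinate flank had 11.7% of 248 regions in set 1 and the high-coordinate flank 72.1% of 276, so that the gene, at 87 of 87, lay where the direction of its surroundings changed. Of 76 genes with at least 10 listed regions on either side, 8 had at least 75% in set 1 on one side and at most 25% on the other. They were Iqschfp, Schip1, Dock2, Cdh13, Ptprn2, Nfia, Spag16 and Celf2.

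**Figure D5:**
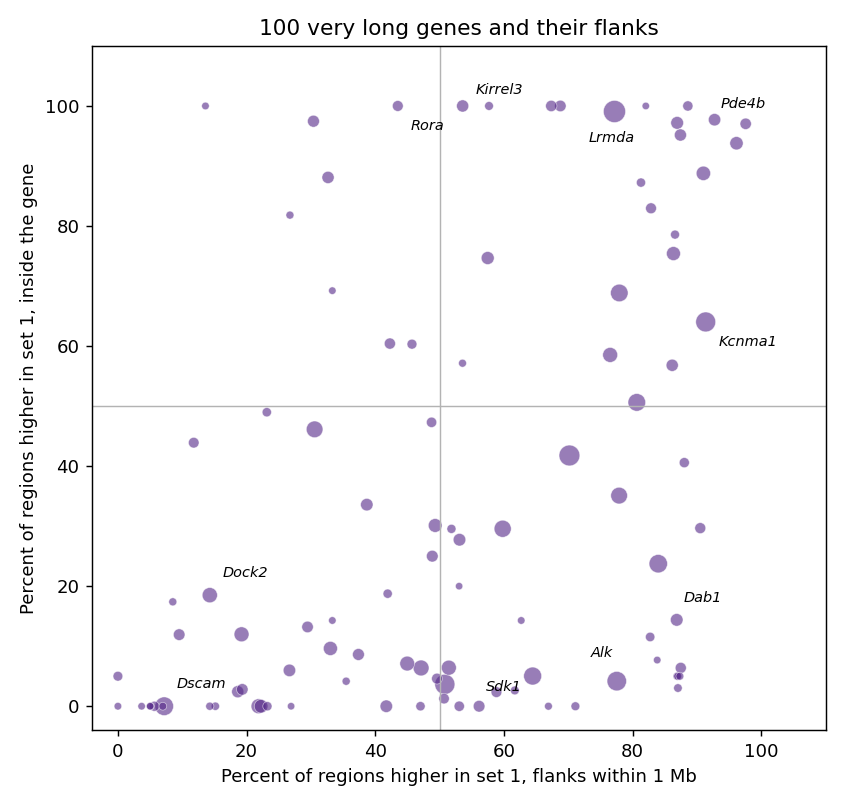
Percent of listed regions higher in set 1 inside a gene (y axis) against the same percent in the listed regions within 1 Mb of its span (x axis) for 100 very long genes, with larger points for genes with more regions. Points lie in all 4 quadrants, with Dab1 and Alk at the lower right, where the gene is in set 2 and its flanks in set 1.

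RefSeq promoter windows of 300 bases were matched for 106 of the 135 genes, 180 windows in all, and a listed region touched 19 of them in 13 genes. Set 1 was the higher set in 13 of these (68.4%, against 59.1% of all listed regions) and set 2 in 6. The median number of CG in the 250 bases before the start was 5 in the touched windows, 9 in the others and 6 over all 32851 windows.

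In 15 of the 19 the region had the majority direction of the gene, and the 4 that went against it lay at starts of Asic2, Dock2, Ctnna3 and Sox6. The region at the L3mbtl4 start shared the direction of the gene. In the authors' deposited table it had 390, 508 and 454 for set 1 against 811, 817 and 808 for set 2, which is 1.80-fold with no overlap between the sets. At the Dock2 start the region (34781751 to 34784450) had, in the authors' deposited table, 622, 622 and 593 for set 1 against 481, 551 and 546 for set 2. It was 1.16-fold higher in set 1 while 185 of the 227 regions in the gene were higher in set 2. Both regions cross the edge of the span and are not among the 12396. At an annotated Thsd4 start the region was 1.56-fold higher in set 1 and separated, and at a Kcnip4 start 1.48-fold higher in set 2 with overlapping libraries.

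Strand was known for the same 106 genes, with 10547 regions, where the 251 regions shared by Iqschfp and Schip1 count once for each gene. When each span was cut into 10 equal bins in the direction of transcription, 41.9% of regions in the first bin were higher in set 1. The share was 23.3% and 23.7% in the fifth and sixth bins, 43.1% in the ninth, the highest of all, and 40.4% in the last. Single genes differed: in Ctnna3 the share was 92.9% in the first bin and 1.59% in the rest, and in Grip1 0% and 61.7%. The bins hold 818 to 1425 regions, from 40 to 70 genes each, so that a gene with many regions weighs more than others.

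Among single regions whose 6 values summed to at least 100, the largest ratios came where one set was at or near 0. In Nfia, a transcription factor gene, a 300 bp region (chromosome 4, 97758001 to 97758300) had, in the authors' deposited table, 60, 82 and 73 for set 1 against 0, 0 and 0 for set 2. In Mctp1, a calcium-binding membrane protein, a region had 43, 51 and 42 against 0, 0 and 1 in the authors' deposited table. In Ctnna3 a 150 bp region (chromosome 10, 63942851 to 63943000) had, in the authors' deposited table, 1, 0 and 0 for set 1 against 33, 28 and 44 for set 2. These regions were short, and 916 of the 12396 regions had at least 1 library at 0.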

How the data were processed

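H3K27me3 immunoprecipitates of 3T3 cells were sequenced by the authors, 3 libraries and 1 input per construct. The submitters' processing notes name CASAVA, Trimmomatic 0.36, BWA 0.7.17 and the build GRCm38. No source used here gives the region caller, the normalization or what was done with the inputs. The deposited table has 1 line per region and no header. Its last column holds the 6 library values, whole numbers of no stated unit that look like rescaled and rounded counts, and the authors' −log10 p, which was not used. No count model was fitted.

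Region starts were moved to 1-based coordinates. Regions were placed inside RefSeq spans (GRCm38.p6), and ratios were taken from values summed per set with a pseudocount of 1. Neither the sets nor the libraries within a set carry a name, so the error of a ratio is its range over 9 library pairs and no mean ± SD is given. The only test was an exact permutation test over libraries. Most counts of directions are given beside the same count over all listed regions or shorter genes. The members and the role lists were chosen with earlier results of these data known. Of the genes in the role lists, 155 were very long.

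Named genes were the 10 with most regions, up to 6 per direction with the highest share in one direction and at least 20 regions, the 4 with the most even split, the 4 per direction with the largest ratio and at least 10 regions, and the 2 with most regions in each role list, 46 in all, of which 1 is not reported here. In each, the region of largest summed value was taken. Over all regions whose 6 values summed to at least 100, the 3 largest log2 ratios per direction were taken as well. A few other genes were named after their values were seen. As a check of strand, 1670 pairs of overlapping promoter windows were compared as reverse complements, and 0 disagreed. On simulated data over 20000 regions in 60 genes, the scripts recovered 99.99% of directions. Alternatives covered 15 planned settings and 2 chosen after seeing the data. Python 3.11.15, pandas 2.3.3, numpy 2.4.6, scipy 1.17.1 and matplotlib 3.10.9 were used.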

Additional observations from a re-analysis of the deposited data

How the results depend on the processing

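The lean to set 2 kept its direction under each of the 17 settings tried. The share of regions higher in set 1, 38.3% as reported, was 39.8% with spans of at least 1 Mb, 41.6% with at least 300 kb and, under the 2 settings chosen after seeing the data, 31.8% after subtracting each chromosome's median log2 ratio and 37.3% without the 10 genes with most regions. The median log2 ratio was -0.74 with equal library totals, -0.47 at 1 Mb and -0.44 at 300 kb. Separated regions made up 63.9% at 1 Mb, 65.3% at 300 kb, 64.2% with values summing to at least 100 and 66.6% without the 10 genes. With a library left out they made up 74.6% to 76.8%, since fewer values must then be separated. Genes higher in set 1 numbered 6 of 32 at 1 Mb, 102 of 268 at 300 kb and 27 of 116 with equal totals. Genes with a single direction numbered 12 of 27 at 1 Mb and 124 of 240 at 300 kb. Neighbours of the same direction made up 80.5%, 81.4% and, with values of at least 100, 83.4%. Equal totals change only the scale of the libraries and the other settings the genes, regions or libraries kept, and for the chromosome medians the cause was not tested. The ratio of library shares, set 1 over set 2, stayed between 0.82 and 0.87.

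Of the 46 named genes, 5 changed sign with equal totals: Grip1, to a log2 ratio of -0.084, and Adamtsl1 (-0.15), Galntl6 (-0.19), Nell1 (-0.18) and Ptprn2 (-0.18), whose sets overlapped as deposited. There 43 genes, these 5 included, shifted beyond the spread over library pairs and 3 did not. Leaving out any library moved none of the 46 beyond that spread. No paired analysis was possible because the columns of the deposited table carry no replicate number. The values are not counts of known depth, so no limit on low regions can be given.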

Other observations

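Very long genes without any listed region outnumbered genes with one in some role groups and were few in others. Of the 215 genes, 80 held none. Among ion channels and their subunits 11 of 13 genes held a listed region, and among glutamate and GABA receptors 3 of 7. Of 25 synaptic and neuronal adhesion genes 12 held none, among them Nlgn1, Nrxn3, Cadm2 and Cntn5. Of 6 receptor tyrosine phosphatase genes 4 held none, namely Ptprd, Ptprg, Ptprk and Ptprm. In the axon guidance group Robo1, Robo2, Slit3, Unc5d and Nrg3 held none, which is 5 of 11. The table gives no level of the mark for a gene without a listed region.

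A further 33 genes held fewer than 10 regions, 139 between them, of which 122 were higher in set 2, and in 24 of the 33 no region was higher in set 1. They include Fat3 and Fhit with 8 regions each, Ctnna2 with 9 and Erbb4, a neuregulin receptor, with 6, all in set 2. Over all listed regions 40.9% were higher in set 2, and in very long genes 7654 of 12396 were. A gene with few regions can lack one direction more easily, and the same count was not made in shorter genes with few regions. Chromosomes differed widely. On chromosome 16, 2.87% of 661 regions in very long genes were higher in set 1, against 35.7% of other listed regions there. On chromosome 15 it was 92.2% of 270, against 52.0%, and on chromosome 17, 20.3% of 1074, against 76.3%. These shares rest on few genes, such as Dscam on chromosome 16 and Ctnnd2 on chromosome 15.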
